A study of Homo sapiens with 6 samples.

Results

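The genes described here are the tumor necrosis factor (TNF) ligands and their receptors in HK-2 cells with and without TGF-β1. Members were chosen by name. They were the entries on primary chromosomes whose symbol starts with TNFSF or TNFRSF and a digit, together with TNF, FAS, FASLG, CD40, CD70, EDAR and NGFR. This gave 42 of 41497 named entries, of which 14 were ligands, 25 were receptors, and 3 were an antisense RNA, a divergent RNA and a readthrough entry. The lymphotoxin genes, CD27, CD40LG, EDA, EDA2R and RELT belong to the same families but carry other names, and they are described with the pathway genes.

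HK-2 is an immortalized line of human proximal tubular epithelial cells, written HK2 and with the genotype WT in the sample labels. The control group held 3 libraries of untreated cells, and the TGF-β1 group held 3 libraries of cells treated with TGF-β1 for 24 hours at a dose that the labels do not give. DMEM-F12 with FBS was the growth medium. For TGF-β treatment in general the methods name a dose and serum-free medium, and their section on RNA sequencing repeats neither. The medium is not stated for the controls, so that a lack of serum and TGF-β1 cannot be told apart here. The labels do not say whether the libraries of a group came from separate cultures, and p-values measure only the spread between these libraries.

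TNF ligands are mostly type II membrane proteins that act as trimers, on the cell surface or after shedding, and each binds 1 or more receptors of the TNFRSF family. Many receptors with a death domain recruit TRADD or FADD and can lead to caspase activation. Further receptors bind TRAF proteins directly and feed NF-κB and MAP kinase signaling, and decoy receptors bind ligand without passing on a death signal. In the kidney, TNF and TRAIL (TNFSF10), FAS, and the TWEAK receptor Fn14 (TNFRSF12A) have been studied in tubular injury, and circulating TNFRSF1A and TNFRSF1B are known markers of kidney disease progression.

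Poly(A) RNA was sequenced, and the depth ranged from 21.9 to 26.9 M counts (megacounts) per library. The labelled cell type was checked against fixed markers. Of 10 proximal tubule markers, 7 were under 1 TPM (a level that takes account of gene length and depth) in both groups, LRP2 had 0 reads and HNF4A had 1 read, whereas PAX8 lay at 206 TPM in control and 114 TPM in TGF-β1 libraries and GGT1 at 85.9 and 52.8 TPM, both called lower. AQP1, at 0.483 and 1.91 TPM, and CUBN, at 0.114 and 0.186 TPM, were called higher. Of 4 epithelial markers, KRT8 and KRT18, at 723 and 449 TPM in control, were called higher, EPCAM, at 35.2 and 13.6 TPM, was called lower, and CDH1 had 9 reads. Of 11 leukocyte markers, 8 were under 1 TPM in both groups, CD3E, MS4A1 and TYROBP had 0 reads and PTPRC had 4 reads over all libraries, but CD68 was at 189 and 127 TPM and CSF1R at 3.35 and 18.1 TPM in control and TGF-β1 libraries. The summed leukocyte list ran from 193.5 to 207 TPM in control and from 130.02 to 168 TPM in TGF-β1 libraries. The 5 endothelial markers summed to between 0.673 and 1.21 TPM in control and to at most 0.062 TPM in TGF-β1 libraries, with CDH5 at 62 reads in control and none in TGF-β1. The part of these markers in the results was not tested. In bulk RNA, fewer cells of a type and less RNA per cell cannot be told apart.

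At least 1 TPM in either group was reached by 22 of the 42 members, and 24 members passed the count filter, which keeps genes with roughly 10 or more counts in 3 libraries. Of these 24, 17 (70.8%) were called changed by the edgeR quasi-likelihood test at an adjusted p under 0.05, and the same test called 44.3% of the 14860 genes tested. There were 5 members higher in TGF-β1 libraries, against 22.2% of all genes tested, and 12 lower, against 22.1%. A change of at least 2-fold was called for 1 higher member, the orphan receptor TNFRSF19, and for 3 lower members, the TNF receptor TNFRSF1B, the death ligand TNFSF10 and the death receptor FAS. The background for such calls was 9.06% of the genes tested. The 3 control and 3 TGF-β1 values did not overlap in 18 of the 24 members, and this was so for 55.6% of all genes tested. A member that passed the filter through its higher group alone was more open to being called, so these shares describe the tested members and not the family.

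**Figure D1:**
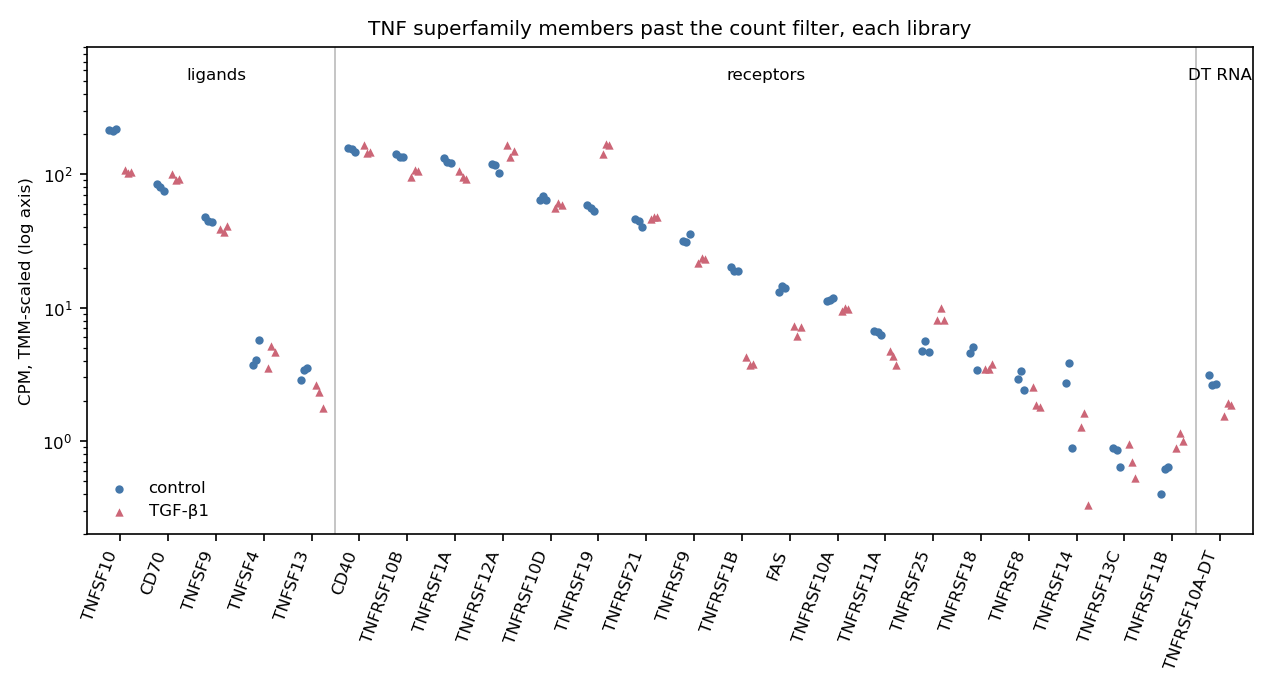
CPM (a count relative to library size, log axis) scaled by TMM in each of the 3 control (circles) and 3 TGF-β1 (triangles) libraries, for the 24 members past the count filter, with ligands at the left, receptors in the middle and the divergent (DT) RNA at the right. The groups stand apart most for TNFRSF1B, near 19.3 and 3.93 CPM, and for TNFRSF19, near 55.9 and 159 CPM.

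The promoters of the 4 members changed at least 2-fold are shown, because these genes carry the largest called differences. The sequences are those of RefSeq on GRCh38.p14, 250 bases before to 50 bases after a start site, read 5′ to 3′ on the strand of the gene. Capitals mark matches on either strand to CAGAC (the core of SMAD sites), TGANTCA (AP-1), GAAANNGAA (IRF) or the κB motif. Where a gene had several start sites, the one closest to the start in the gene table was taken. For FAS, that start still lies 22369 bases after the listed one. The windows are chr1:12166741-12167040 (plus strand) for TNFRSF1B, chr3:172523381-172523680 (minus strand) for TNFSF10, chr10:88990548-88990847 (plus strand) for FAS and chr13:23570162-23570461 (plus strand) for TNFRSF19.
TNFRSF1B: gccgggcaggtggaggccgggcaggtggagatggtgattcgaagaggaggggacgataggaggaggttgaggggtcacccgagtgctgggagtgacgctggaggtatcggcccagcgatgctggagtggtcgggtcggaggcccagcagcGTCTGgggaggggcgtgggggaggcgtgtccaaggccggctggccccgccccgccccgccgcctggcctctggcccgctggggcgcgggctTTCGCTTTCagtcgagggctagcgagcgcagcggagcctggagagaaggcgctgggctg
TNFSF10: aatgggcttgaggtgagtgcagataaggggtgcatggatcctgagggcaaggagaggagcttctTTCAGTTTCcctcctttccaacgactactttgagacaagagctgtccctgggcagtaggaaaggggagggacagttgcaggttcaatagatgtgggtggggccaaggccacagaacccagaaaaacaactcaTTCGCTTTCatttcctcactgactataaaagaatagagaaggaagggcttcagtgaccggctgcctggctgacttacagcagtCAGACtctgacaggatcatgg
FAS: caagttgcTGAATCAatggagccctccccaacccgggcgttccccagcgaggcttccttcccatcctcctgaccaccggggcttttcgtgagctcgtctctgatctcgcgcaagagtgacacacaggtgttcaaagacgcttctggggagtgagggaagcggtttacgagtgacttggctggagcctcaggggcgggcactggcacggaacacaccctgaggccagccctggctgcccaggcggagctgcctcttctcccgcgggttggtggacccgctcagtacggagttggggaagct
TNFRSF19: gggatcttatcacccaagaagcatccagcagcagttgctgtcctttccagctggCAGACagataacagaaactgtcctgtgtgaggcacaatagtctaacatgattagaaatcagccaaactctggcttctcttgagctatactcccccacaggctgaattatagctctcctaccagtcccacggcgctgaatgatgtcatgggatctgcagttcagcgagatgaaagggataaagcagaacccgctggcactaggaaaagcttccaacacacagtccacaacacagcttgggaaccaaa

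The SMAD core was present in the printed windows of TNFRSF1B, TNFSF10 and TNFRSF19. Among 35116 RefSeq promoters of the same length, 45.3% held this core, 7.71% the AP-1 motif, 8.11% the IRF motif and 5.91% the κB motif. TNFRSF1B and TNFSF10 each had an IRF match close to the start, beginning 9 and 54 bases before it, and TNFSF10 had another that began 186 bases before it. Among members whose windows are not printed, FASLG, TNFSF9, TNFSF13B and TNFSF14 also had an IRF match. The printed FAS window held an AP-1 match and none of the other motifs, and another FAS start at chr10:88991181-88991480 had 2 SMAD cores and 1 κB match. A further FAS start, at chr10:88990664-88990963, had no match to any of the 4 motifs. The second TNFRSF19 start, at chr13:23579110-23579409, had no match to any of the 4 motifs. No 2 marked matches overlapped in the printed windows. A match describes the letters only and names no bound factor.

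Among the 14 ligands, 5 were tested, of which 3 were lower, 1 was higher and 1 was not called, with a median log2 fold change of -0.22. The median over all genes tested was 0.0063. TNFSF10 (TRAIL; chr3:172505508-172523430, hg38), which binds death receptors TNFRSF10A and TNFRSF10B, was the most abundant ligand. It was at 214, 211 and 218 CPM in control and at 109, 102 and 105 CPM in TGF-β1 libraries. The lowest control value was nearly double the highest TGF-β1 value. TNFSF10 fell with a log2 fold change of -1.03 ± 0.05 (SE, adjusted p = 5.19e-08, edgeR), and its level per length went from 239 ± 7.79 to 108 ± 0.703 TPM (SD, n = 3).

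TNFSF9 (4-1BB ligand), a co-stimulator of T cells, was at 47.8, 45.0 and 43.8 CPM in control and at 39.3, 37.0 and 40.8 CPM in TGF-β1 libraries. The groups were close but did not overlap, and TNFSF9 fell by 0.22 ± 0.06 on the log2 scale (adjusted p = 0.0148, edgeR). The call was lost without control replicate 1 (-0.19, adjusted p = 0.0682) and also without TGF-β1 replicate 2 (-0.19, adjusted p = 0.0568). CD70, the ligand of CD27, moved the other way, from 84.4, 80.4 and 75.5 CPM to 100.5, 89.9 and 93.0 CPM. All 3 TGF-β1 values lay above the controls. The log2 fold change of CD70 was 0.24 ± 0.06 (adjusted p = 0.0108, edgeR), and it lost its call without control replicate 3 (0.20, adjusted p = 0.0527) and with libraries scaled by total counts alone (0.13, adjusted p = 0.118), a scaling that shifted the median of all genes by -0.11.

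TNFSF13 (APRIL), a factor for B and plasma cells, was low, at 2.88, 3.39 and 3.54 CPM in control and at 2.65, 2.32 and 1.77 CPM in TGF-β1 libraries. Its groups did not overlap, although the lowest control and the highest TGF-β1 value nearly met. TNFSF13 fell with a log2 fold change of -0.54 ± 0.19 (adjusted p = 0.0372, edgeR). The call was lost in 4 of 6 fits without 1 library, those without control replicate 2 (-0.51), control replicate 3 (-0.48), TGF-β1 replicate 2 (-0.56) or TGF-β1 replicate 3 (-0.40), with adjusted p from 0.0703 to 0.121. Its exons share 66.3% of their bases with the readthrough entry TNFSF12-TNFSF13, which was listed at 0 reads, and how reads in shared exons were assigned is not stated. TNFSF4 (OX40 ligand) was not called (-0.01 ± 0.20, adjusted p = 0.968).

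The other 9 ligands were under the count filter. TNFSF14 (LIGHT) had 13 reads in control and 5 in TGF-β1 libraries, TNFSF13B (BAFF) had 8 and 6, TNFSF18 (GITR ligand) 6 and 1, and FASLG, the ligand of FAS, 5 and 2. TNFSF12 (TWEAK) had 2 and 5 reads, TNFSF8 2 and 2 and TNFSF15 0 and 2. None of these ratios passed an exact binomial test on summed reads, which covers counting error only. The smallest p was 0.0624 for TNFSF14 (ratio 0.381, 95% interval 0.106 to 1.14), and the next was the exact p of 0.0691 for TNFSF18. TNFSF11 (RANKL) had no read in 141.7 M counts, which allows a level of up to 0.0212 CPM.

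TNF itself was listed at 0 reads in all libraries. The gene lies in the major histocompatibility complex and has 8 entries, 1 on chromosome 6 and 7 on alternate contigs, and all of them were at 0. DDX39B, an RNA helicase gene of the same region that cells use generally, also has 8 entries and was also at 0 in all of them. TUBB, a tubulin gene with 8 entries, had 134 of its 18133 reads on the primary entry. How reads matching several copies were treated is not stated, so no level of TNF can be read from these tables.

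**Figure D2:**
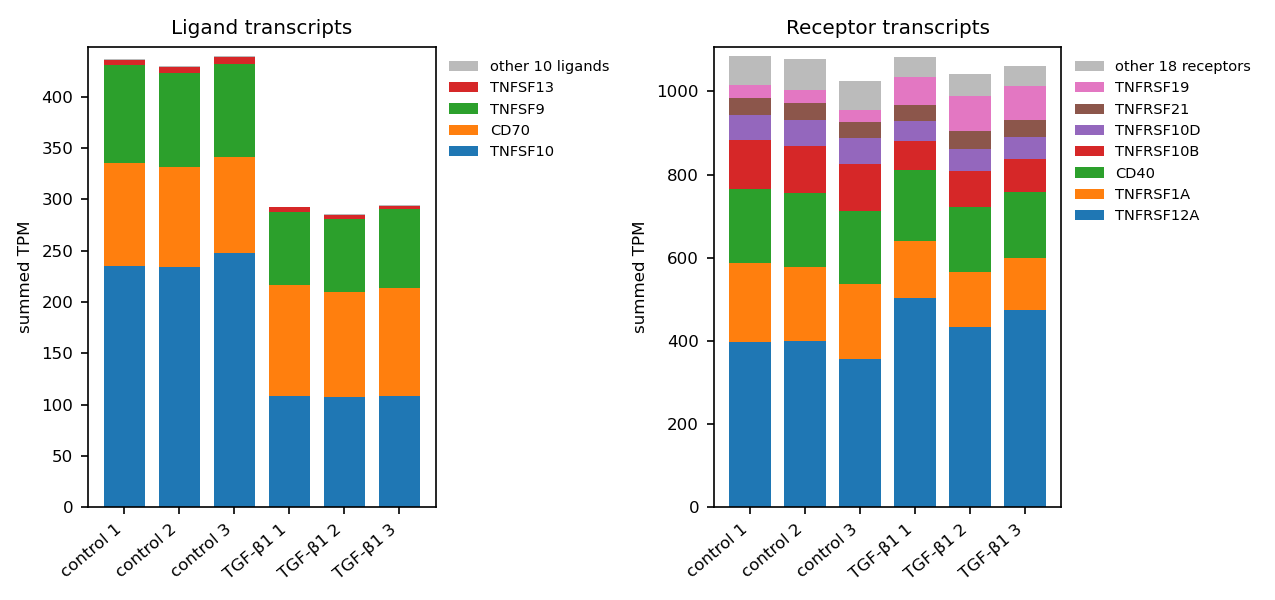
Summed TPM of the ligands (left) and receptors (right) in each library, stacked by the most abundant genes of each class in control and the rest of the class in gray. The ligand bars end near 436 TPM in control and 291 TPM in TGF-β1 libraries with TNFSF10 making most of the difference, and the receptor bars end near 1062 TPM in both groups.

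Ligand and receptor transcripts differed as pools. Ligands summed to 436 ± 5.04 TPM in control and 291 ± 4.97 TPM in TGF-β1 libraries (SD, n = 3), a ratio of 0.668, and the libraries of the groups did not overlap. Receptors summed to 1062 ± 32.7 and 1062 ± 19.9 TPM, with overlapping libraries. On summed CPM scaled by TMM, receptors were at 796 ± 28.1 in control and higher, at 833 ± 7.37, in TGF-β1 libraries, without overlap. The level of the receptor sum thus depended on the measure. TNFSF10 made up 54.9% ± 1.38 of ligand TPM in control and 37.1% ± 0.406 in TGF-β1 libraries. Receptor over ligand TPM was 2.44 ± 0.0946 in control and 3.65 ± 0.0487 in TGF-β1 libraries. These sums have no test, and a few abundant genes set them. They hold only the members chosen by name. The lymphotoxin β receptor LTBR, at 174 TPM in control and 134 TPM in TGF-β1 libraries, and RELT, at 18.9 and 26.5 TPM, are left out.

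Among the 25 receptors, 18 were tested, of which 4 were higher, 8 lower and 6 not called, with a median log2 fold change of -0.26. The shares called were thus 4 of 5 tested ligands and 12 of 18 tested receptors (66.7%), beside 44.3% of all genes tested. Receptors called higher made up 22.2% of those tested and receptors called lower 44.4%, beside 22.2% and 22.1% of all genes. The difference between these shares was not tested. Under the filter were 9 ligands and 7 receptors.

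**Figure D3:**
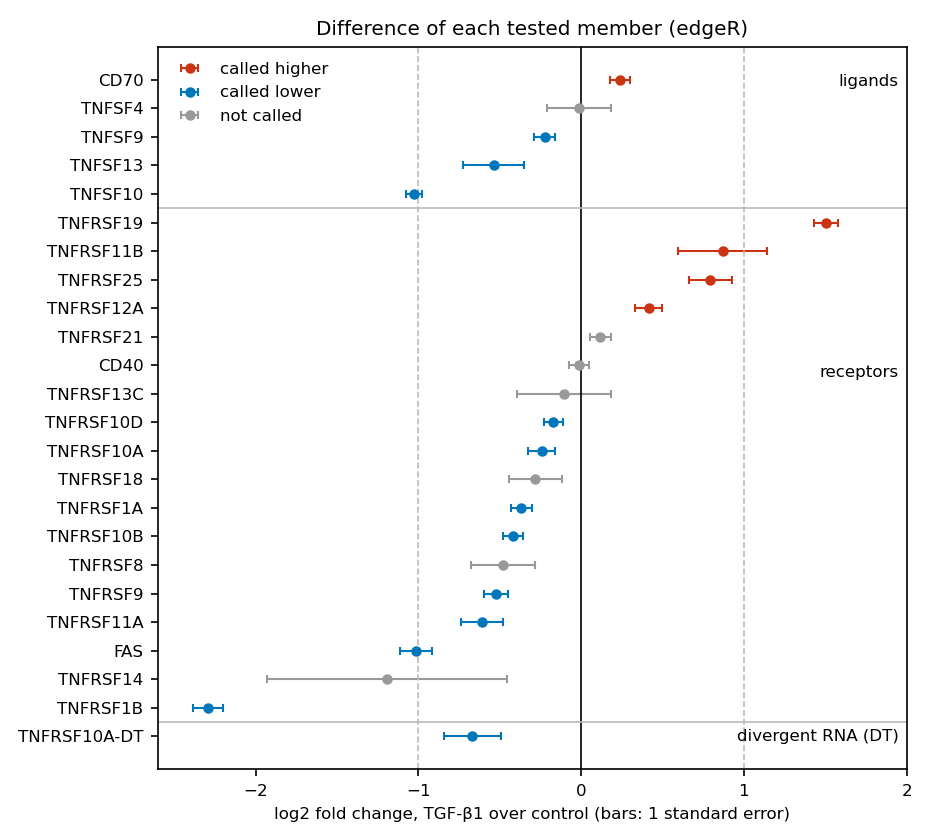
Log2 fold change of TGF-β1 over control with 1 standard error for the 24 tested members, from the edgeR fit over all genes, with red for called higher, blue for called lower, gray for not called and dashed lines at 2-fold. TNFRSF1B at -2.29 and TNFRSF19 at 1.50 are the extremes, and TNFRSF14 has the widest error, 0.74.

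Both TNF receptors fell, with 95% intervals of their folds that did not meet (0.180 to 0.232 for TNFRSF1B and 0.710 to 0.846 for TNFRSF1A). TNFRSF1B (TNFR2; chr1:12166948-12209222, hg38), a receptor without a death domain that binds TRAF2, was at 20.2, 18.8 and 19.0 CPM in control and at 4.30, 3.72 and 3.77 CPM in TGF-β1 libraries. Every control value was more than 4 times every TGF-β1 value. TNFRSF1B fell with a log2 fold change of -2.29 ± 0.09 (adjusted p = 1.24e-08, edgeR), to 0.204 of its control level, and from 13th to 17th in the order of member levels by TPM. TNFRSF1A (TNFR1), the death domain receptor of TNF, was at 133, 123 and 123 CPM in control and at 106, 95.9 and 92.2 CPM in TGF-β1 libraries. Its groups did not overlap, and it fell with a log2 fold change of -0.37 ± 0.06 (adjusted p = 8.76e-04, edgeR). Their TPM ratio, TNFRSF1A over TNFRSF1B, was 14.8 ± 0.156 in control and 56.2 ± 1.67 in TGF-β1 libraries (SD, n = 3).

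FAS (chr10:88968429-89017059, hg38), the death receptor of FASLG, was at 13.2, 14.4 and 14.1 CPM in control and at 7.34, 6.16 and 7.16 CPM in TGF-β1 libraries. The control libraries were all well above the treated ones, and FAS fell with a log2 fold change of -1.02 ± 0.10 (adjusted p = 1.02e-05, edgeR). Of its exon bases, 4.20% lie in exons of ACTA2 or FAS-AS1. FASLG had 7 reads in all, so FAS was measured here with almost none of its ligand.

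The TRAIL receptors of the cell membrane that were tested had log2 fold changes from -0.42 to -0.17, beside -1.03 for their ligand, and the difference between these was not tested. TNFRSF10B (DR5) was at 143, 135 and 134 CPM in control and at 95.4, 108 and 105 CPM in TGF-β1 libraries. The groups stood apart, and it fell with a log2 fold change of -0.42 ± 0.06 (adjusted p = 2.46e-04, edgeR). TNFRSF10A (DR4) was at 11.3, 11.5 and 11.9 CPM in control and at 9.52, 9.97 and 9.84 CPM in TGF-β1 libraries. This was a small difference of -0.24 ± 0.08 on the log2 scale (adjusted p = 0.0321, edgeR), and its call was lost in all 6 fits without 1 library, with log2 fold changes from -0.26 to -0.22 and adjusted p from 0.0510 to 0.0931. The decoy TNFRSF10D, which lacks a complete death domain, was at 64.6, 68.8 and 64.4 CPM in control and at 55.9, 61.4 and 58.5 CPM in TGF-β1 libraries. It fell with a log2 fold change of -0.17 ± 0.06 (adjusted p = 0.0374, edgeR) and lost its call without any 1 of the controls (-0.18 for replicate 1, -0.14 for replicate 2 and -0.19 for replicate 3) or TGF-β1 replicate 3 (-0.17), with adjusted p from 0.0584 to 0.157. The other decoy of this group, TNFRSF10C, had 3 reads in control and 1 in TGF-β1 libraries. The TPM ratio of these 2 membrane decoys to the 2 death receptors, which leaves out the secreted TNFRSF11B, was 0.484 ± 0.0269 in control and 0.565 ± 0.0122 in TGF-β1 libraries, without overlap.

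The divergent RNA TNFRSF10A-DT, listed next to TNFRSF10A on the other strand, was at 3.15, 2.66 and 2.68 CPM in control and at 1.54, 1.94 and 1.86 CPM in TGF-β1 libraries. The groups did not overlap, and it fell with a log2 fold change of -0.67 ± 0.17 (adjusted p = 0.00965, edgeR). Its exons overlap no other gene.

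Among the other death domain receptors, TNFRSF25 (DR3), the receptor of TNFSF15, rose from 4.74, 5.64 and 4.69 CPM in control to 8.07, 10.01 and 8.07 CPM in TGF-β1 libraries. All treated libraries were above all controls, and the log2 fold change was 0.79 ± 0.13 (adjusted p = 6.07e-04, edgeR). Its exons share 19.0% of their bases with ESPN and PLEKHG5, and how reads there were assigned is not stated. TNFRSF21 (DR6) was at 46.3, 44.4 and 40.1 CPM in control and at 46.3, 47.9 and 47.7 CPM in TGF-β1 libraries, where the highest control nearly met the lowest treated library, and it was not called (0.12 ± 0.07, adjusted p = 0.169). NGFR had 7 reads in each group and EDAR had 8 and 5. Of the 8 death domain receptors, 6 were tested, with 4 lower, 1 higher and 1 not called. This was 83.3% called, beside 44.3% of all genes tested, and the difference between these shares was not tested. The class summed to 365 ± 8.43 TPM in control and 276 ± 8.53 TPM in TGF-β1 libraries.

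TNFRSF11B (osteoprotegerin), a secreted decoy of TNFSF11 and TNFSF10, was at 0.399, 0.613 and 0.639 CPM in control and at 0.883, 1.158 and 1.003 CPM in TGF-β1 libraries. These are low levels without overlap, and TNFRSF11B rose with a log2 fold change of 0.87 ± 0.27 (adjusted p = 0.0234, edgeR). Its call was lost without control replicate 1 (0.69, adjusted p = 0.0840), TGF-β1 replicate 2 (0.76, adjusted p = 0.0912) or TGF-β1 replicate 3 (0.87, adjusted p = 0.0525). TNFRSF11A (RANK), the signaling receptor of TNFSF11, was at 6.74, 6.58 and 6.22 CPM in control and at 4.72, 4.34 and 3.72 CPM in TGF-β1 libraries. It fell with a log2 fold change of -0.61 ± 0.13 (adjusted p = 0.00308, edgeR), without overlap. The TPM of the decoy over that of the receptor was 0.348 ± 0.0936 in control and 0.986 ± 0.191 in TGF-β1 libraries (SD, n = 3). The soluble decoy TNFRSF6B had 6 and 10 reads, but 90.5% of its exon bases lie in other genes.

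**Figure D4:**
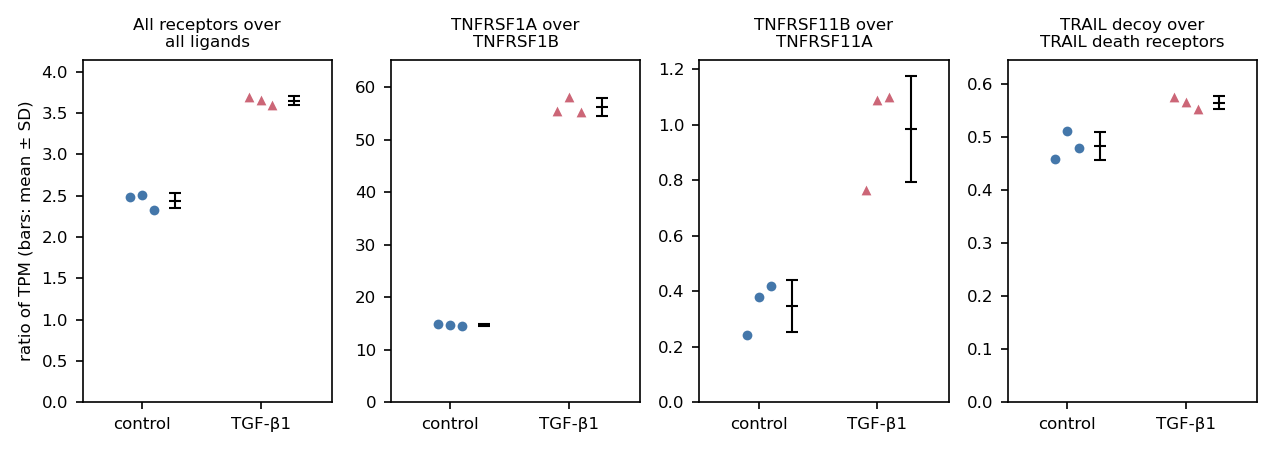
Ratios of TPM in each library, with the mean and SD of the 3 control (circles) and 3 TGF-β1 (triangles) libraries beside the points, for all receptors over all ligands, TNFRSF1A over TNFRSF1B, TNFRSF11B over TNFRSF11A and TRAIL decoy over TRAIL death receptors. All 4 ratios were higher in each TGF-β1 library than in each control library, and the TNF receptor ratio moved most, from 14.8 to 56.2. Receptors and ligands here are the members chosen by name.

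Among receptors that bind TRAF proteins directly, TNFRSF19 (TROY; chr13:23570248-23676093, hg38), an orphan receptor known from hair follicle and neural development, showed the largest rise. It was at 58.5, 55.9 and 53.4 CPM in control and at 142, 169 and 165 CPM in TGF-β1 libraries. The lowest treated library was more than double the highest control. TNFRSF19 rose with a log2 fold change of 1.50 ± 0.07 (adjusted p = 4.74e-08, edgeR), a fold of 2.83 with a 95% interval of 2.57 to 3.13, and went from 10th to 6th in the order of member levels by TPM.

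TNFRSF12A (Fn14), the receptor of TWEAK, had the highest level per length of all members in both groups, 384 ± 24.1 TPM in control and 471 ± 35.4 TPM in TGF-β1 libraries. It was at 119, 117 and 103 CPM in control and at 166, 135 and 150.02 CPM in TGF-β1 libraries. The groups did not overlap, and it rose with a log2 fold change of 0.41 ± 0.08 (adjusted p = 0.00223, edgeR). Its share of receptor TPM was 36.1% ± 1.21 in control and 44.3% ± 2.52 in TGF-β1 libraries. Its ligand TNFSF12 had 7 reads over all libraries, although 36.8% of the exon bases of TNFSF12 are shared with the readthrough entry.

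TNFRSF9 (4-1BB), the receptor of TNFSF9, was at 31.5, 31.2 and 35.7 CPM in control and at 21.6, 23.5 and 23.3 CPM in TGF-β1 libraries. It fell together with its ligand, with a log2 fold change of -0.53 ± 0.07 (adjusted p = 1.80e-04, edgeR) and no overlap between groups. CD40, the receptor of CD40LG, was abundant and was not called. It was at 157, 154 and 148 CPM in control and at 165, 145 and 146 CPM in TGF-β1 libraries, and the 95% interval of its fold ran from 0.913 to 1.08.

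TNFRSF14 (HVEM), the receptor of LIGHT, varied widely among libraries, from 2.75, 3.84 and 0.895 CPM in control to 1.27, 1.61 and 0.334 CPM in TGF-β1 libraries. The groups overlapped, and the log2 fold change of -1.20 ± 0.74 was not called (adjusted p = 0.256, edgeR). It is also listed on an alternate contig, with 2 reads there, and shares 11.0% of its exon bases with TNFRSF14-AS1, which had 3 reads in control and 2 in TGF-β1 libraries. TNFRSF8 (CD30) was not called (-0.48 ± 0.20, adjusted p = 0.0692, edgeR), but it was called without TGF-β1 replicate 1 (-0.67, adjusted p = 0.0153), with libraries scaled by total counts alone (-0.59, adjusted p = 0.0323) and in the fit restricted to means of 50 counts or more (-0.50, adjusted p = 0.0467). TNFRSF18 (GITR) was at 4.56, 5.07 and 3.41 CPM in control and at 3.50, 3.47 and 3.77 CPM in TGF-β1 libraries and was not called (-0.28 ± 0.16, adjusted p = 0.192, edgeR), but it was called without control replicate 3 (-0.43, adjusted p = 0.0469). The BAFF receptor TNFRSF13C was not called (-0.11 ± 0.29, adjusted p = 0.795), TNFRSF4 (OX40) had 1 read in each group, TNFRSF17 had 1 read, in a TGF-β1 library, and TNFRSF13B had none. Of the 13 receptors of this class, 10 were tested, with 2 higher, 3 lower and 5 not called. The share called was thus 5 of 10, beside 44.3% of all genes tested, and the difference between these shares was not tested. The class summed to 634 ± 28.5 TPM in control and 734 ± 31.9 TPM in TGF-β1 libraries.

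In the order of levels by TPM, TNFRSF12A was first in both groups, and TNFSF10 went from second to 4th. In control, TNFRSF1A at 184 ± 6.12 TPM and CD40 at 177 ± 2.30 TPM were neighbors within their spread, as were CD70 at 97.2 ± 3.65 TPM and TNFSF9 at 92.8 ± 2.56 TPM. In TGF-β1 libraries, TNFSF10 at 108 ± 0.703 TPM and CD70 at 106 ± 3.05 TPM lay within their spread, as did TNFRSF19 at 79.3 ± 9.21, TNFRSF10B at 79.0 ± 7.26 and TNFSF9 at 73.2 ± 3.60 TPM. Several receptors had ligands with few or no reads: TNFRSF12A with TNFSF12, CD40 with CD40LG, which had 0 reads, and FAS with FASLG. TNFSF10 and TNFSF9 were present together with their receptors, whereas CD70 was present with CD27 at 0.502 TPM in control and 0.341 TPM in TGF-β1 libraries.

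Other genes of the pathway were taken from 6 lists. Their shares called are read beside the 44.3% of all genes tested. Of 8 superfamily genes with other names, 2 were tested, and 1 rose. RELT, a TNF receptor family member of lymphoid tissues, rose from 21.4 ± 1.38 to 32.4 ± 0.530 CPM (SD, n = 3; log2 fold change 0.60 ± 0.07, adjusted p = 3.34e-05, edgeR), and the lymphotoxin β receptor LTBR missed the threshold (-0.26 ± 0.09, adjusted p = 0.0506). LTBR was called lower in 9 of 14 alternative fits, among them those without control replicate 3 (-0.33, adjusted p = 0.0215) or TGF-β1 replicate 1 (-0.37, adjusted p = 0.00777), and the list then had 2 calls, as it also had without control replicate 1, where LTBR was not called. LTA and LTB, the lymphotoxin ligands, had 0 reads on their primary entries and lie in the same multiply listed region as TNF.

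Of 17 receptor adaptors and ubiquitin ligases, 16 were tested, 5 were lower and 2 higher (43.8% called), and the median log2 fold change was -0.01. Without any 1 of the controls or TGF-β1 replicate 3, only 4 of the list were called. BIRC3 (cIAP2), a ubiquitin ligase bound to TRAF2, had the largest fall, from 148 ± 8.14 to 14.7 ± 2.00 CPM (log2 fold change -3.34 ± 0.09, adjusted p = 1.44e-09, edgeR). Its paralog BIRC2 was not called (-0.02 ± 0.06), nor were FADD, RIPK1 and TRAF2, whereas TRADD fell (-0.48 ± 0.10, adjusted p = 0.00268). The largest called rise was that of SHARPIN, a subunit of the linear ubiquitin ligase (0.30 ± 0.09, adjusted p = 0.0198).

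Of 13 caspases and death effectors, 12 were tested, 5 were lower and 3 higher (66.7% called), with a median of 0.05. CASP10, an initiator caspase of death receptors, fell from 23.4 ± 1.32 to 10.9 ± 0.506 CPM (-1.11 ± 0.08, adjusted p = 6.99e-07, edgeR). CASP8, its relative, was not called (0.10 ± 0.08), and CFLAR (cFLIP), an inhibitor of caspase-8, fell (-0.74 ± 0.05, adjusted p = 1.27e-06). BAK1, a pore-forming protein of mitochondria, was the largest rise (0.33 ± 0.08, adjusted p = 0.00483, edgeR). RIPK3, the kinase of necroptosis, had 0 reads on the primary of its 2 entries. Reads on its other entry are not given here, and how reads matching several copies were treated is not stated.

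Of 14 kinases and NF-κB subunits, all were tested, 5 were higher and 3 lower (57.1% called), with a median of 0.07. With libraries scaled by total counts alone, 5 were called. MAP3K5 (ASK1), a stress kinase activated by TNF, fell from 102 ± 3.82 to 27.5 ± 2.04 CPM (-1.90 ± 0.07, adjusted p = 5.91e-09, edgeR). RELB, a subunit of the non-canonical NF-κB pathway, was the largest rise (0.70 ± 0.08, adjusted p = 5.12e-05). Of 7 shedding proteases and their partners, 3 were lower and 2 higher (71.4% called), with a median of -0.19, and 3 were called without control replicate 1 or TGF-β1 replicate 2. FURIN, a protease that cleaves several ligand precursors, rose from 45.2 ± 1.32 to 134 ± 8.59 CPM (1.57 ± 0.06, adjusted p = 1.08e-08, edgeR), ADAM10 had the largest fall (-0.37 ± 0.07, adjusted p = 9.88e-04), and ADAM17, the main TNF sheddase, was not called (-0.19 ± 0.08, adjusted p = 0.0904).

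Of 17 genes known as targets of TNF, 16 were tested, 8 were lower and 6 higher (87.5% called), with a median of -0.63. The largest falls were those of the adhesion molecule VCAM1 (-2.96 ± 0.17, adjusted p = 1.88e-07, edgeR) and the pentraxin PTX3 (-2.88 ± 0.10, adjusted p = 5.09e-09), followed by the mitochondrial superoxide dismutase SOD2 (-1.67 ± 0.06, adjusted p = 3.36e-09) and the chemokine CXCL2 (-1.63 ± 0.06, adjusted p = 9.15e-09). The chemokine CCL2 rose (1.28 ± 0.24, adjusted p = 0.00128, edgeR), and so did the stress response gene IER3 (3.32 ± 0.42, adjusted p = 8.65e-05). IER3 has 6 entries, and its primary entry, on which this value rests, held 126 of its 1504 reads. The primary entry had 11 reads in control and 115 in TGF-β1 libraries, and all its entries together had 200 and 1304. ICAM1 was not called (-0.03 ± 0.07, adjusted p = 0.713), and the abundant chemokine CXCL8 rose by less (0.38 ± 0.06, adjusted p = 3.12e-04). Genes named as TNF targets thus went in both directions, but not by like amounts. The 8 called falls ran from -1.22 (NFKBIA) to -2.96 (VCAM1), and the 6 called rises from 0.35 (TNFAIP3) to 3.32 (IER3).

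**Figure D5:**
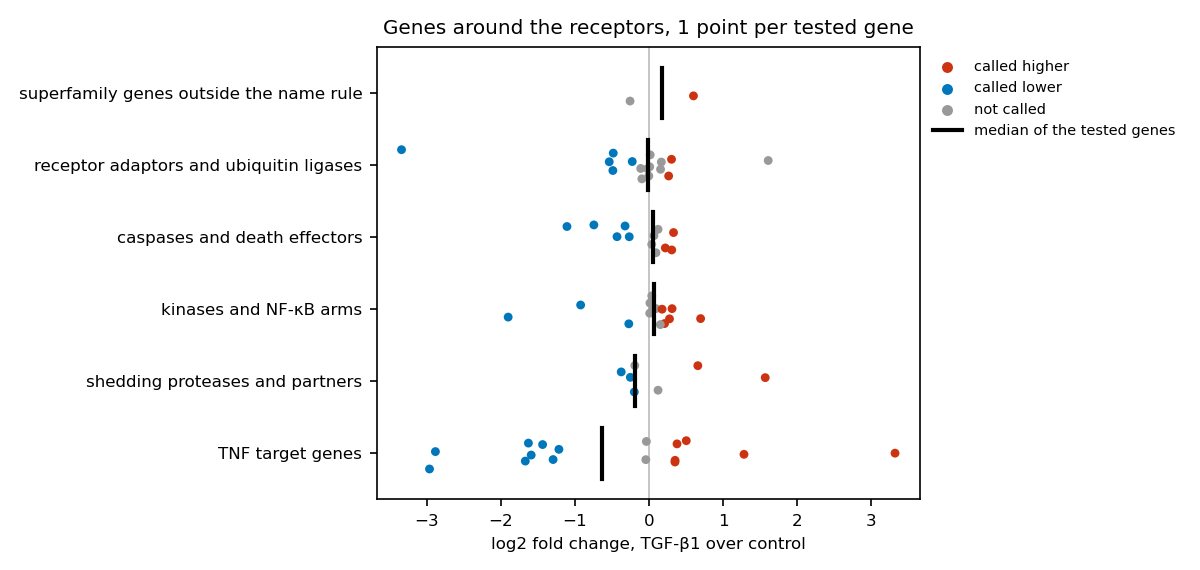
Log2 fold change of TGF-β1 over control for each tested gene of the 6 pathway lists, in red for called higher, blue for called lower and gray for not called, with a black line at the median of each list. The list of TNF target genes has the lowest median, -0.63, and spans from VCAM1 at -2.96 to IER3 at 3.32.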

How the data were processed

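The treatment label of each sample set its group, giving 3 control and 3 TGF-β1 libraries of HK-2 cells. Per the submitters' processing notes, CASAVA, featureCounts 2.0.1, DESeq2 1.16.1 and the build hg38 were used. Per the methods of the study, adapter and low-quality reads had been removed. The aligner, the annotation release, the strand setting and the treatment of reads that match several genes are not given in the sources used here. The authors deposited raw counts per gene for each library, together with TPM and FPKM values that they computed from counts and gene length. The FPKM values deposited by the authors were not used. Each table had 42095 entries, of which 598 carried no gene name. These were not tested and made up 0.396% to 0.464% of a library. In each table, 7 records broken over several lines were rejoined.

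Low genes were removed by filterByExpr (minimum count 10) in edgeR 4.0.16. The rest were scaled with TMM and compared with the quasi-likelihood F test with robust dispersion, fitted over all 14860 genes kept. P values were two-sided and adjusted by the Benjamini-Hochberg method, with a threshold of 0.05. The script was tested on simulated data. Members under the filter were compared on summed reads by an exact conditional binomial test, two-sided, with 95% intervals that cover counting error only, and an exact permutation test of 3 against 3 libraries cannot go below 0.1. A count of 0 allows up to 3 counts. Exon overlaps were computed from the exons in the tables. Alternatives used limma 3.58.1 and DESeq2 1.42.0 under R 4.3.3. Tables and exact tests used scipy 1.17.1 and pandas 2.3.3 under Python 3.11.15.

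The members and lists were chosen with earlier results of these data known. Named with values are the members called, those of at least 5 TPM in either group, and, from each list, the called genes changed at least 2-fold, at most the 4 largest in each direction, or else the largest call. DDX39B and TUBB, and further genes named as not called or as smaller calls, were chosen after their values were seen. Promoters from RefSeq matched 25 members.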

Additional observations from a re-analysis of the deposited data

How the results depend on the processing

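The 17 calls were recomputed in 14 other fits, except TNFRSF11B, which the limit of a mean of 50 counts removed, and no called member changed direction in a fit that tested it. FAS, TNFRSF1A, TNFRSF1B, TNFRSF9, TNFRSF10B, TNFRSF11A, TNFRSF12A, TNFRSF19, TNFRSF25 and TNFSF10 kept their call in all 14, and the other 7 lost it in at least 1. Members called lower numbered 12 as reported, 8 with DESeq2 and 13 with total counts alone, and members called higher numbered 4 or 5 throughout. Leaving out 1 library in turn left 2 to 4 ligands called, the lowest number arising without control replicate 3 or TGF-β1 replicate 2, 9 to 12 receptors, and 0 to 2 members under the filter with an exact binomial p under 0.05 (2 without TGF-β1 replicate 3, and 1 without control replicate 1 or 3), against 0 in the full set. The correlations of same-numbered libraries were 0.111, -0.0117 and 0.0762, and not every library correlated best with its own number. With 3 libraries a group, these values cannot settle whether the numbers pair the libraries. With a replicate block, 13 members were lower and TNFRSF14 was called (-1.23, adjusted p = 6.93e-04, edgeR). On summed CPM in place of TPM, receptors over ligands were 2.28 in control and 3.39 in TGF-β1 libraries. DESeq2 ended the calls of TNFRSF10A-DT (adjusted p = 0.0601), TNFRSF10D (0.0691), TNFSF13 (0.128), TNFRSF11B (0.167) and TNFRSF10A (0.173), and no filter on low counts ended those of TNFRSF10D and TNFRSF10A. Depth limits the members under the filter, and 3 libraries a group limit all calls.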
